A study of Mus musculus with 9 samples.

Results

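The cholesterol genes described here are *Srebf2*, *Hmgcs1*, *Idi1*, *Fdps*, *Sqle*, *Cyp51* and *Dhcr7*, which are 7 of the 17943 genes in a bulk RNA-Seq count table of mouse skin. They were chosen by name, as the transcriptional regulator of cholesterol synthesis and 6 of its enzymes, and all 7 passed the filter on low counts. None of the 7 encodes a receptor for cholesterol uptake, so uptake genes are given from a separate list. The table holds 5 control mice and 4 *Supt6*-KO mice, collected on day 10 after the final injection. The labels call the controls wild-type (WT), whereas the study's methods describe *Supt6* fl/fl mice injected with corn oil as vehicle. The *Supt6*-KO mice were K14-CreERT; *Supt6* fl/fl and received tamoxifen by intraperitoneal injection, so floxed *Supt6* alleles were shared by both groups according to the methods. Neither the labels nor the methods used here give the age in days, and the study places the deletion in the first telogen, the resting phase of the hair cycle. The K14 promoter drives the Cre in basal keratinocytes, so the deletion is made there and passes to the cells that descend from them, while cell types of other lineages in the skin keep *Supt6*. Loss of *Supt6*, the Cre transgene and tamoxifen cannot be told apart in this design. The labels name ear as the tissue and the methods name dorsal skin.

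Cholesterol is built from acetyl-CoA through mevalonate and isoprenoid units to squalene, which is closed into lanosterol and trimmed to cholesterol in the endoplasmic reticulum. SREBP2, the product of *Srebf2*, is held in that membrane by SCAP and INSIG proteins when sterols are abundant. When sterols are scarce it is cleaved and enters the nucleus, where it switches on nearly all genes of the pathway. In skin, cholesterol is made by keratinocytes for the lipid barrier of the cornified layer and by sebocytes for sebum.

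SREBP2 binds sterol regulatory elements close to the start of its targets, usually beside sites for NF-Y and Sp1, so the proximal promoters of the genes are shown first. RefSeq (GRCm38.p6) promoter windows were matched for 5 of the 7 genes, *Srebf2*, *Hmgcs1*, *Idi1*, *Cyp51* and *Dhcr7*. Printed 5′ to 3′ on the gene's own strand are the 150 bases before each start, with matches to 4 motifs in capitals on either strand: CACNCCAC (the core of a sterol regulatory element), CCAAT (NF-Y box, ATTGG on the other strand), GGGCGG (GC box, CCGCCC on the other strand) and CACGTG (E-box). These letters do not overlap one another in the windows shown.
Srebf2, chr15:82147119-82147268, forward strand: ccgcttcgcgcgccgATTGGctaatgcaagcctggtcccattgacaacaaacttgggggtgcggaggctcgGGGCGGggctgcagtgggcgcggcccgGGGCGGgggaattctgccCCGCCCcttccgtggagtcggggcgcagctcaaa
Hmgcs1, chr13:119690201-119690350, forward strand: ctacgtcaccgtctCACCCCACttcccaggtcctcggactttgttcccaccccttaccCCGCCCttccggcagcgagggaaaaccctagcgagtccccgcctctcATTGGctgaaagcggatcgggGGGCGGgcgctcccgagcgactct
Idi1, chr13:8885456-8885605, forward strand: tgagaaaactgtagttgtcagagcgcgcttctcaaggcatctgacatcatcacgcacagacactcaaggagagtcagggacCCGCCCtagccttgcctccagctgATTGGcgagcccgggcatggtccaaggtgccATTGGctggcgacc
Cyp51, chr5:4104698-4104847, reverse strand: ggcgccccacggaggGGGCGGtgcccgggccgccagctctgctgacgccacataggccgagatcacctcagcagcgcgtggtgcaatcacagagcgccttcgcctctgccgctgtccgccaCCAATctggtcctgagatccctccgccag
Dhcr7, chr7:143830064-143830213, forward strand, the third of its 3 windows: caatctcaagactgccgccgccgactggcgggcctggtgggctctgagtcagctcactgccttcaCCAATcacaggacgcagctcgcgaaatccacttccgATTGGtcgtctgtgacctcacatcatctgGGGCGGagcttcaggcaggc
*Srebf2*, *Hmgcs1*, *Idi1* and *Cyp51* have 1 window each, and all 4 held a CCAAT box and a GC box. Of the 32851 RefSeq promoter windows of the same length, 24.5% held a CCAAT box and 28.6% a GC box. The *Dhcr7* window shown was picked because it is the one of its 3 with a CCAAT box, so its match is not set against these shares. Among the windows of the 5 genes, the other 2 of *Dhcr7* included, CACNCCAC stood only in that of *Hmgcs1*, from -136 to -129 counted from the start, and in 3.37% of all windows. CACGTG was in none of the 5 windows shown, against 4.3% of all windows. The NF-Y box of *Hmgcs1* and 1 of the 2 in *Idi1* lay at the same place, at -45. For *Hmgcs1* alone, the bases just after the RefSeq start were not found in the gene's transcripts in GENCODE, another annotation. Its positions therefore rest on a start that this second source did not share. A match describes letters and is not a bound site, and no match says only that those letters are not in that window.

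*Supt6* checked the labels. It measured 74.5, 56.6, 63.6, 91.1 and 96.7 CPM (counts scaled to a common library size after TMM, a method that corrects for composition) in the controls and 28.6, 24.1, 21.9 and 28.4 CPM in the *Supt6*-KO mice. The groups were fully separate, with 33.7% of the control level left (log2 fold change -1.57, SE 0.18, edgeR quasi-likelihood adjusted p = 1.3e-05). The change was -0.82 with an offset for transcript length and -2.26 with library totals, both past the test. Bulk libraries hold all cells of the tissue, so fewer cells of a type and less RNA per cell cannot be told apart for any gene below.

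Mouse 4 of the *Supt6*-KO group stood apart from the other 3. Its TMM factor was 0.91 against 0.674 to 0.781, its 50 most abundant genes took 17% of counts against 23.9% to 27.9%, and its summed suprabasal keratinocyte markers were 21707 CPM against 41850 to 44353 CPM. Its summed proliferation markers were 1126 CPM, where the other 3 had 352 to 474 CPM. Values without this mouse are given beside each of the 7 genes.

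The 7 genes did not move together. In *Supt6*-KO skin 4 were higher (*Idi1*, *Sqle*, *Fdps* and *Cyp51*), 2 were lower (*Srebf2* and *Dhcr7*), and *Hmgcs1* did not pass the test (edgeR's quasi-likelihood test, Benjamini-Hochberg adjusted p under 0.05 over 16426 genes). The background was high, since 34.1% of all genes tested were called higher and 36.8% lower by this rule. Only *Idi1* changed at least 2-fold, a limit that 20.9% of all genes passed upward and 24.9% downward. All *Supt6*-KO mice lay above all controls for 3 of the 7 genes, where 28.9% of all genes did so, and below all controls for 2, where 31.8% did so.

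*Srebf2* (NCBI gene 20788, chromosome 15, 82147269 to 82205379) encodes the master regulator of the pathway. It measured 120.8, 96.7, 106.3, 141.8 and 141.7 CPM in the controls and 61.9, 48.3, 54.3 and 86.7 CPM in the *Supt6*-KO mice. The groups did not overlap, and mouse 4 was the highest of its group. Mean CPM fell from 121.5 ± 20.4 (SD, n = 5) to 62.8 ± 16.9 (SD, n = 4), and the log2 fold change was -0.95 (SE 0.19, edgeR adjusted p = 0.0008). Without mouse 4 it was -1.15, and with an offset for transcript length it shrank to -0.47 (edgeR adjusted p = 0.017).

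*Hmgcs1* (NCBI gene 208715, chromosome 13, 119690351 to 119708260) encodes the cytosolic HMG-CoA synthase, an early enzyme on the way to mevalonate. Controls had 724.2, 709.1, 708.9, 807.4 and 643.6 CPM, and *Supt6*-KO mice had 592.3, 688, 584.1 and 520.3 CPM. The groups overlapped, since mouse 2 of the *Supt6*-KO group stood above control 5. The log2 fold change was -0.27, with a 95% interval of -0.57 to 0.03 (edgeR adjusted p = 0.098), and -0.21 without mouse 4. With library totals in place of TMM it was -0.98 and with upper-quartile factors -0.35, and both passed the test (edgeR adjusted p = 2.8e-05 and 0.037).

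*Idi1* (NCBI gene 319554, chromosome 13, 8885606 to 8892396) encodes isopentenyl-diphosphate isomerase, which balances the 5-carbon isoprenoid units. Its level was 282.9, 353.3, 336, 279.7 and 239.1 CPM in the controls and 1062, 1120.8, 1195 and 1382.7 CPM in the *Supt6*-KO mice. Even the lowest *Supt6*-KO mouse lay far above the highest control. The mean rose 3.99-fold, from 298.2 ± 46.2 CPM (SD, n = 5) to 1190 ± 139 (SD, n = 4), and the log2 fold change was 2.00 (SE 0.16, edgeR adjusted p = 1.5e-06). Its paralog *Idi2* had at most 79 counts in any mouse, against at least 9393 for *Idi1*. The *Idi1* change was 1.91 without mouse 4 and 1.32 with library totals.

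*Fdps* (NCBI gene 110196, chromosome 3, 89093588 to 89101967) encodes farnesyl diphosphate synthase, whose product feeds sterols and the farnesyl and geranylgeranyl branches. Controls measured 194.8, 212.1, 190.4, 178.3 and 170.4 CPM, and *Supt6*-KO mice 265.7, 191.3, 231.1 and 391.2 CPM. Mouse 4 was the highest and mouse 2 fell among the controls. The log2 fold change of 0.51 (SE 0.19, edgeR adjusted p = 0.029) became 0.27 (edgeR adjusted p = 0.059) without mouse 4. The call was also lost when *Supt6*-KO mouse 1 or control 3, 4 or 5 was left out (edgeR adjusted p from 0.05 to 0.061). In those fits the log2 fold change stayed at 0.48 to 0.52. The call therefore depends on single mice, whereas the size of the rise fell clearly only without mouse 4.

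*Sqle* (NCBI gene 20775, chromosome 15, 59315092 to 59331193) encodes squalene epoxidase, a rate-limiting oxygen-using step after squalene. It stood at 167, 175.3, 161.9, 182.1 and 162.2 CPM in the controls and at 242.6, 213.7, 231.2 and 308.5 CPM in the *Supt6*-KO mice. All 4 *Supt6*-KO mice were above all controls. The log2 fold change was 0.55 (SE 0.13, edgeR adjusted p = 0.0024) and 0.43 without mouse 4.

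*Cyp51* (NCBI gene 13121, chromosome 5, 4080674 to 4104697) encodes lanosterol 14-alpha-demethylase. The controls had 313.7, 392.1, 297.5, 385.4 and 281.1 CPM and the *Supt6*-KO mice 486.7, 484.6, 420.9 and 447.8 CPM. Again the *Supt6*-KO mice lay above all controls, and mouse 4 was within its group. The log2 fold change was 0.46 (SE 0.14, edgeR adjusted p = 0.012) and 0.47 without mouse 4.

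*Dhcr7* (NCBI gene 13360, chromosome 7, 143823167 to 143848410) encodes 7-dehydrocholesterol reductase, which makes cholesterol from 7-dehydrocholesterol, also the precursor of vitamin D in skin. Controls were tightly grouped at 171.8, 159.6, 169.2, 171.9 and 180.1 CPM, and *Supt6*-KO mice had 106.1, 98.4, 81.7 and 79.6 CPM. The 4 *Supt6*-KO mice all lay under the lowest control. Mean CPM fell from 170.5 ± 7.34 (SD, n = 5) to 91.5 ± 12.9 (SD, n = 4), and the log2 fold change was -0.90 (SE 0.12, edgeR adjusted p = 4.6e-05), and -0.84 without mouse 4.

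**Figure D1:**
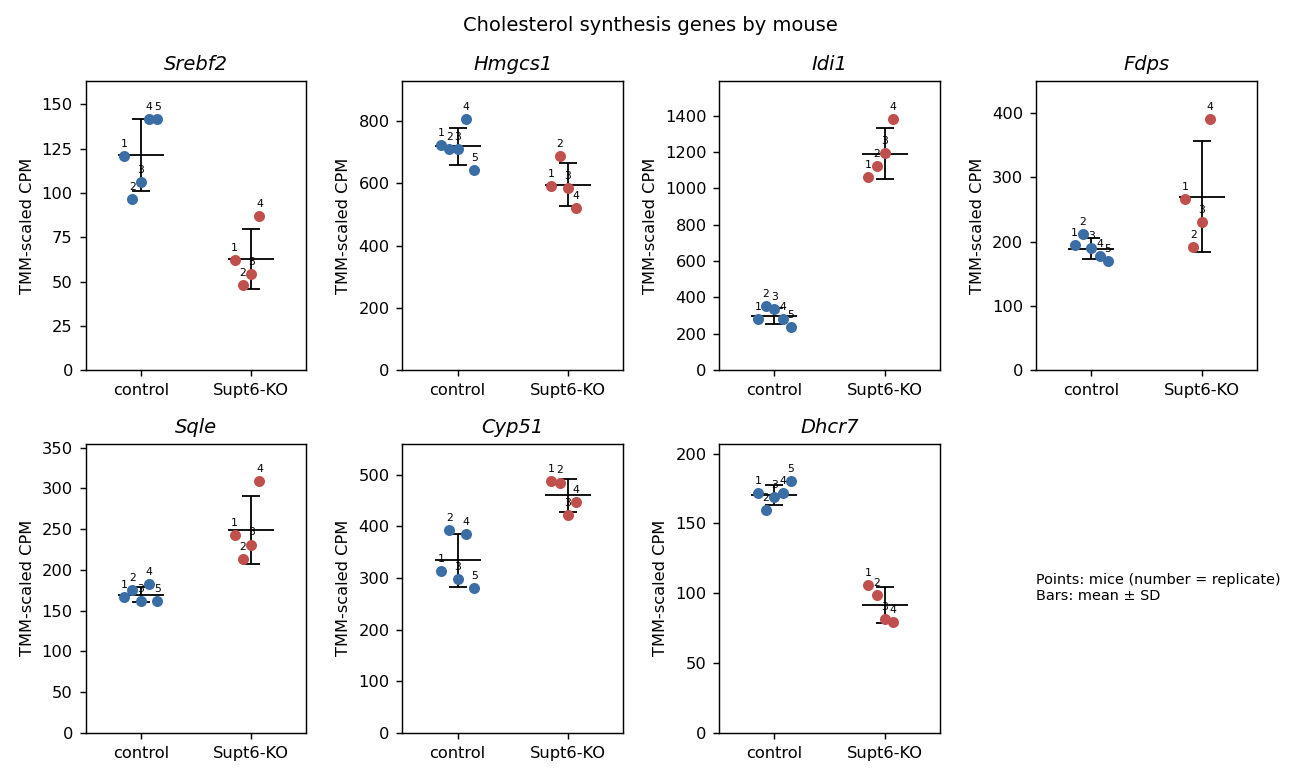
CPM of the 7 genes in each mouse, 1 panel per gene with its own axis from 0. Points are single mice, numbered, and bars show the group mean with the SD (5 control, 4 *Supt6*-KO). *Idi1* separates the groups most, from at most 353.3 CPM in controls to at least 1062 CPM in *Supt6*-KO mice, while *Hmgcs1* and *Fdps* overlap.

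Levels per transcript length came from the deposited TPM values (transcript abundance scaled to a fixed total in each mouse), of which columns for 6 of the 9 mice were used, all 5 controls and *Supt6*-KO mouse 4. In the controls the order of TPM levels was *Hmgcs1* (354 ± 44.5, SD, n = 5), *Fdps* (320 ± 19.4), *Idi1* (183 ± 7.14), *Cyp51* (131 ± 18.6), *Sqle* (111 ± 13.6), *Dhcr7* (109 ± 18.1) and *Srebf2* (46.1 ± 13.0). *Hmgcs1* and *Fdps* overlapped between mice, as did *Cyp51*, *Sqle* and *Dhcr7*, whereas *Idi1* at 176.42 to 191.89 TPM overlapped with none of the others. In *Supt6*-KO mouse 4 *Idi1* was the highest of the 7 at 431.87 TPM, with *Fdps* at 335.54 and *Hmgcs1* at 128.51 TPM, and *Srebf2* was the lowest at 16.19 TPM. These TPM values give the order within a mouse and were not used to compare the groups.

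Ratios of raw counts within a mouse do not depend on the scaling between mice. *Idi1* to *Hmgcs1* was 0.346 to 0.498 in the controls and 1.63 to 2.66 in the *Supt6*-KO mice, a difference of 2.28 on the log2 scale. *Fdps* to *Idi1* went the other way, from 0.567 to 0.712 in controls down to 0.171 to 0.283. For both ratios the groups did not overlap. In the middle of the pathway the groups overlapped, with *Sqle* to *Fdps* at 0.827 to 1.02 and 0.789 to 1.12, and *Cyp51* to *Sqle* at 1.73 to 2.24 and 1.45 to 2.27. At the end of the pathway *Dhcr7* to *Cyp51* was 0.407 to 0.641 in the controls and 0.178 to 0.218 in the *Supt6*-KO mice, again without overlap.

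With the 6 enzymes above, 22 genes of the pathway were measured. Of the 22, 13 were higher, 3 were lower and 6 did not pass, and their median log2 fold change was 0.51 where that of all genes tested was -0.07. Both early and late steps were among the higher genes, and *Lss* and *Dhcr7* were among the lower ones. Over all genes tested, 34.1% were called higher and 36.8% lower, and the same shares apply to the lists below. At least 2-fold changes were found for 6 higher genes and 1 lower gene of the 22. That limit was passed by 20.9% of all genes upward and 24.9% downward.

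Before squalene, the 6 other genes had 4 calls higher and none lower (at an unadjusted p under 0.05, 5 higher and 0 lower, and by DESeq2 6 higher and 0 lower). *Pmvk*, encoding phosphomevalonate kinase, changed most, from 72.6 ± 10.6 CPM (SD, n = 5) to 169.5 ± 19.5 (SD, n = 4), with a log2 fold change of 1.22 (edgeR adjusted p = 1.2e-05). *Mvk* (mevalonate kinase), *Acat2* (cytosolic thiolase) and *Mvd* (mevalonate diphosphate decarboxylase) had log2 fold changes of 0.65, 0.55 and 0.52, each called. *Fdft1*, squalene synthase, was not called, at 0.23 on the log2 scale (edgeR adjusted p = 0.12).

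From squalene to cholesterol, 5 of the 10 other genes were higher and 2 lower. *Erg28*, which encodes a scaffold for sterol enzymes, had a log2 fold change of 1.87, *Ebp* (sterol isomerase) 1.73, *Sc5d* (lathosterol desaturase) 1.29 and *Tm7sf2* (a sterol C14 reductase) 1.24. *Ebp* went from 60.4 ± 5.14 (SD, n = 5) to 200.7 ± 10.5 CPM (SD, n = 4; edgeR adjusted p = 3.4e-07). *Lbr*, which encodes the lamin B receptor and also a C14 reductase, was called at 0.64. *Lss*, lanosterol synthase, was lower at -0.57 (edgeR adjusted p = 0.0059), but at 0.22 (edgeR adjusted p = 0.096) with the length offset. *Msmo1*, *Nsdhl* and *Hsd17b7*, which act together in sterol demethylation, had 0.07, -0.05 and 0.33 and did not pass, and *Msmo1* was the most abundant of the list per length.

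**Figure D2:**
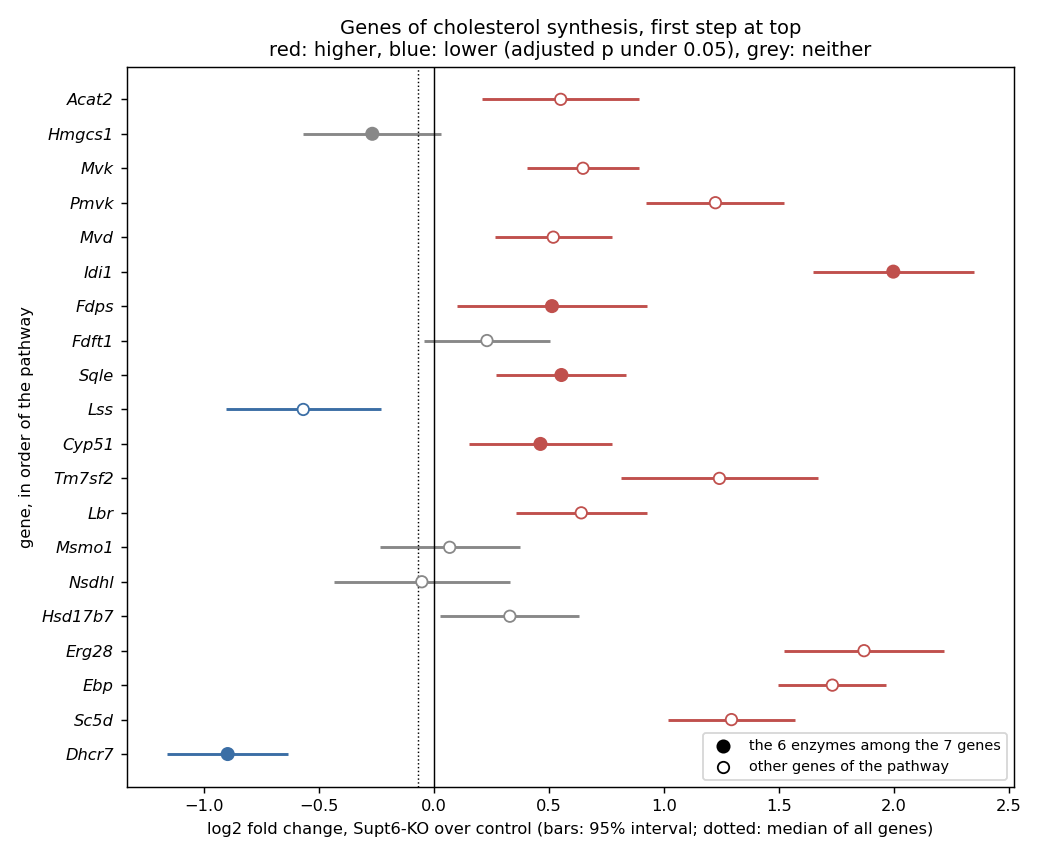
Log2 fold change of *Supt6*-KO over control for genes of cholesterol synthesis, in pathway order from top to bottom, with 95% intervals from edgeR. Filled points are the 6 enzymes among the 7 genes. *Idi1* (2.00), *Erg28* (1.87) and *Ebp* (1.73) stand at the high end and *Dhcr7* (-0.90) and *Lss* (-0.57) at the low end.

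Library scaling bears on the smaller changes. With library totals instead of TMM, the median of all genes moved by -0.69, and *Fdps*, *Sqle* and *Cyp51* came to -0.13, -0.12 and -0.23, none past the test. *Acat2*, *Mvk*, *Mvd* and *Lbr* also turned negative without passing. Relative to the median of all genes, *Sqle* was 0.63 higher with TMM and 0.64 higher with library totals, and *Cyp51* 0.53 higher with both. A change of scaling moves all genes by nearly the same amount, so this likeness follows from subtracting the median. It does not show which scaling is right. *Idi1* stayed positive and *Srebf2* and *Dhcr7* negative under every scaling tried. The split of genes changed at least 2-fold was 3427 higher and 4088 lower with TMM, and 1470 and 6802 with library totals.

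Among the 10 other genes of SREBP activation and sterol sensing, 4 were higher and 4 lower, with a median of -0.11. The shares of all genes tested were 34.1% higher and 36.8% lower, so these counts do not set the list apart. With library totals 0 of the list were higher. *Srebf1*, which encodes SREBP1, fell from 136.3 ± 16.8 CPM (SD, n = 5) to 42 ± 5.72 (SD, n = 4), with a log2 fold change of -1.70 (edgeR adjusted p = 1.6e-06). The within-mouse ratio of *Srebf1* to *Srebf2* was 1.03 to 1.27 in controls and 0.415 to 0.846 in *Supt6*-KO mice, so both genes were lower and *Srebf1* more so. *Mbtps1*, encoding the site-1 protease that cleaves SREBPs, was lower at -1.10 (edgeR adjusted p = 2.4e-05). *Insig2*, a retention factor and the most abundant gene of the list per length, was higher at 0.85 (edgeR adjusted p = 0.0032), although mouse 4 at 116.4 CPM lay among the controls. *Scap*, the SREBP escort, and *Insig1*, an SREBP2 target and retention factor, were singled out after their values were seen. Their log2 fold changes were -0.45 and 0.93, both called, so the regulator and its escort were lower while both INSIG genes were higher.

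In the list of 15 genes for uptake and transport inside the cell, 4 were higher, 5 lower and 6 not called. Their median was -0.23 (10 lower with library totals). With 34.1% of all genes tested called higher and 36.8% lower, these counts do not set the list apart either. *Npc2*, encoding a lysosomal cholesterol carrier, rose from 169.5 ± 17.1 (SD, n = 5) to 562.4 ± 67.5 CPM (SD, n = 4; log2 fold change 1.73, edgeR adjusted p = 1.3e-06) and had the highest TPM of the list in the controls. Its membrane partner *Npc1* was lower at -1.47 (edgeR adjusted p = 8.7e-06), so the pair moved apart. *Stard4*, a cytosolic sterol carrier, and *Tmem97*, which binds NPC1, were higher at 1.58 and 1.06. The lipoprotein receptor genes *Vldlr* and *Lrp1* were lower at -1.65 and -1.06, with *Lrp1* at 0.24 under the length offset, and *Lrp8* was higher at 1.75. *Lrp8* was low throughout, at 3.5 to 5.1 CPM in 3 *Supt6*-KO mice, 13.6 CPM in mouse 4 and no more than 2 CPM in any control.

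Of 14 measured genes of LXR targets, efflux, esterification and sulfation, 3 were higher and 7 lower, with a median of -0.46. For all genes tested the shares were 34.1% and 36.8%. *Sult2b1*, which makes the cholesterol sulfate of the cornified layer, rose from 55.7 ± 5.51 (SD, n = 5) to 181.5 ± 28.5 CPM (SD, n = 4; log2 fold change 1.71, edgeR adjusted p = 1.3e-06). The oxysterol enzymes *Cyp7b1* and *Ch25h* were higher at 2.47 and 1.82, the latter below 2 CPM in every mouse. *Soat1*, which esterifies cholesterol, was lower at -1.61, followed by *Lcat* at -1.39, *Cyp27a1* at -1.16 and the efflux pump gene *Abca1* at -1.04, the last at 0.01 under the length offset. *Apoe*, the most abundant of the list per length, was lower at -0.66 with overlapping groups (edgeR adjusted p = 0.022).

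The branches that use farnesyl diphosphate for other products had 6 of 13 genes higher and 3 lower, with a median of 0.26. For all genes tested the shares were 34.1% and 36.8%. *Pdss1* and *Coq2* of coenzyme Q synthesis were at 1.42 and 1.23, *Rce1*, a protease of prenylated proteins, at 1.23, and *Nus1* of dolichol synthesis at 1.13. *Fnta*, a shared subunit of protein prenyltransferases and the most abundant of the list per length, was higher at 0.95 (edgeR adjusted p = 0.00019).

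Fatty acid synthesis, the pathway mainly served by SREBP1, had 12 of 14 genes lower and 0 higher (by edgeR at an unadjusted p under 0.05 and by DESeq2 also 12 lower and 0 higher). Its median log2 fold change was -1.51. *Scd1*, stearoyl-CoA desaturase and the most abundant of the list per length, fell from 5837 ± 559 CPM (SD, n = 5) to 863 ± 192 (SD, n = 4), with a log2 fold change of -2.76 (edgeR adjusted p = 1.2e-06). *Fasn*, *Elovl5* and *Fads2* were lower at -2.37, -2.21 and -2.21. *Scd2* at -0.05 and *Me1* at 0.07 were not called.

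Cell type markers also differed between the groups, and their part in the results above was not tested. Their counts stand against the same background, 34.1% of all genes tested called higher and 36.8% lower. The gene named as most abundant in a list is the one with the highest TPM, a level per transcript length, in the controls, and need not have the highest CPM. Of 10 sebocyte markers 8 were lower and none higher, and their sum was 1236 to 1684 CPM in the 5 controls and 190 to 581 CPM in *Supt6*-KO mice, with *Fa2h* the most abundant per length. Of 8 adipocyte markers 6 were lower, with sums of 342 to 451 CPM and 161 to 208 CPM (most abundant per length *Cfd*). Both cell types make fatty acids. Of 7 suprabasal keratinocyte markers 4 were higher (most abundant per length *Krtdap*, with a log2 fold change of 1.82, and at -0.10 with the length offset), with sums of 20480 to 22316 CPM in controls. Of 7 basal markers 6 were lower, with *Krt14*, the most abundant per length, at 0.66 and not called. The basal sums were 11643 to 13312 CPM in controls, 5801 to 8402 CPM in *Supt6*-KO mice 1 to 3 and 14105 CPM in mouse 4.

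Other lists moved as well. Neutrophil markers (6 of 7 higher, most abundant per length *S100a8*) summed to 14 to 42.8 CPM in the 5 controls and 2516 to 6449 CPM in *Supt6*-KO mice, and macrophage markers (6 of 8 higher, most abundant per length *Lyz2*) to 159 to 342 and 683 to 1149 CPM. These immune lists held 1 lower gene each. Fibroblast markers (4 of 7 lower, most abundant per length *Dcn*) summed to 3105 to 10759 and 2081 to 3954 CPM, endothelial markers (5 of 6 lower, *Pecam1*) to 54.2 to 121 and 32.8 to 46.2 CPM, and skeletal muscle markers (6 of 7 lower, *Acta1*) to 3702 to 4976 and 837 to 1436 CPM. Hair shaft markers (8 of 8 lower, *Krt71*) varied among controls from 26 to 1577 CPM and were 4.78 to 7.19 CPM in *Supt6*-KO mice, and 5 of 8 proliferation markers were higher (*Pcna*). *Krt10*, a keratin of the suprabasal epidermis, averaged 14343 ± 729 CPM in the 5 controls and 16351 ± 5761 CPM (SD) in the 4 *Supt6*-KO mice, so epidermis was present in both groups. Cartilage markers, which belong to ear rather than to back skin, summed to 293 to 687 CPM in the controls and 53.8 to 66.3 CPM in the *Supt6*-KO mice, and all 7 tested were lower, with *Col9a1* the most abundant per length. *Matn1* had 0 counts in every *Supt6*-KO mouse and too few overall to be tested.

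Within groups, the 7 genes did not vary as one. Over 9 mice, deviations from the group mean in log2 CPM gave Pearson r from -0.71 (*Idi1* and *Dhcr7*) to 0.91 (*Fdps* and *Sqle*) across 21 pairs, with a median of 0.05. The value for *Fdps* and *Sqle* was 0.75 without *Supt6*-KO mouse 4 and 0.20 in the 5 controls alone, and that for *Idi1* and *Dhcr7* was -0.62 and -0.92. *Srebf2* and *Fdps* had r = 0.58 over 9 mice and 0.12 without mouse 4. All pairs come from the same libraries and share their depth, so these r values are descriptions. The mean deviation of the 7 genes was highest in *Supt6*-KO mouse 4, at 0.17. Of 9531 genes with a mean of at least 10 CPM, those most like this mean deviation were *B4galnt1* (r = 0.97), *Sgta* (0.97), *Smn1* (0.97), *Cdv3* (0.97) and *Arid5a* (0.97), which are the highest r by selection. Of these, *Smn1* was higher in *Supt6*-KO mice at 0.88 and *Cdv3* at 0.44, the latter at -0.22 with library totals, and the other 3 were not called.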

How the data were processed

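Bulk RNA-Seq of skin from 5 control and 4 *Supt6*-KO mice was used. The authors aligned reads to mm10 (Bowtie2 2.3.4.3; HISAT is also listed in the submitters' processing notes) and deposited RSEM 1.3.1 estimated counts, with TPM values, which the authors scaled per transcript length, used here for 6 mice. The annotation release is not given in the sources used here. The 7 genes and all lists were chosen with earlier results of these data known. Estimated counts (9% not whole) were rounded. Totals were 29627341 to 30491197 in controls and 30597189 to 30967107 in *Supt6*-KO mice, and precision is limited by the number of mice and, for low genes, by counting error. Nothing states whether mice are littermates, and p-values measure the spread between these samples.

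Genes with fewer than 10 counts over 9 mice were left out (1517 of 17943). edgeR 4.0.16 (R 4.3.3) with TMM and its quasi-likelihood test compared groups without covariates, with Benjamini-Hochberg adjustment over 16426 genes. Calls used an adjusted p under 0.05, with or without a 2-fold limit. Coordinates and promoters are from RefSeq GRCm38, matched by NCBI ID, symbol or synonym for all but 26 genes. Named genes are *Supt6*, the 7 genes, every gene of both enzyme lists, up to 4 higher and 4 lower genes changed at least 2-fold per other list with its most abundant gene, the 5 most similar genes, and each marker list's most abundant gene. The results of some genes of these lists are not reported here. Alternatives were DESeq2 1.42.0, 3 other scalings, 2 other filters, removal of the 50 most abundant genes, transcript length offsets (GENCODE), a replicate block and each mouse left out. On simulated counts with 200 of 16335 genes changed in this comparison, edgeR recovered 100% of 4-fold and 86% of 2-fold changes. It called 3 unchanged genes. In the data themselves, 34.1% of all genes tested were called higher and 36.8% lower. How edgeR performs with shares of that size was not tested. Tables were summarised with Python 3.11.15 and pandas 2.3.3.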

Additional observations from a re-analysis of the deposited data

Results flagged for a closer look

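In groups of 4 or 5 mice, the highest or lowest mouse was compared with the rest by Dixon's gap test over 164 groups of values, where chance flags about 1 in 20 groups (8.2 here) and 9 were found, 5 of them in *Supt6*-KO mouse 4. That mouse had 13.6 CPM of *Lrp8* (group median 4.31), 18 CPM of *Abca1* (33.5), 181 CPM of *Nus1* (138), 21707 CPM of summed suprabasal keratinocyte markers (42589) and 1126 CPM of summed proliferation markers (424). *Supt6*-KO mouse 1 had 97.4 CPM of *Mvk* (81.5), and *Supt6*-KO mouse 3 had 102 CPM of *Mvd* (81.8) and 1.46 CPM of *Lcat* (1.05). Control 2 had 154 CPM of *Acat2* (128). None of the 7 cholesterol genes was set apart in this way.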

How the results depend on the processing

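Under library totals, calls with at least a 2-fold change came to 1470 higher and 6802 lower, *Hmgcs1* to -0.98, *Fdps* to -0.13, *Sqle* to -0.12 and *Cyp51* to -0.23, and the lists to 1 higher and 1 lower (before squalene), 4 lower (after squalene), 0 higher (SREBP activation), 10 lower (uptake) and 5 lower (isoprenoid branches). With upper-quartile factors *Hmgcs1* was -0.35 and *Fdps* 0.42, and length offsets left 1 lower gene after squalene and 3 lower uptake genes. The causes were not tested. Deviations from the group mean gave r = -0.011, 0.243, 0.222 and 0.059 for mice of the same number. Pairs of different numbers ran from -0.227 to 0.255. These few values cannot decide whether the numbers pair the mice. A replicate block gave 3139 higher and 3836 lower genes and *Supt6* at -1.46, and among the 7 genes only *Fdps* lost its call (0.43). Leaving out each mouse gave 3248 to 3476 higher and 3845 to 4204 lower genes, and *Supt6* ranged from -1.66 to -1.47, *Srebf2* from -1.15 to -0.86, *Hmgcs1* from -0.36 to -0.21 (past the test without *Supt6*-KO mouse 2), *Idi1* from 1.91 to 2.07, *Fdps* from 0.27 to 0.63, *Sqle* from 0.43 to 0.61, *Cyp51* from 0.41 to 0.53 and *Dhcr7* from -0.98 to -0.84. List counts ranged from 4 to 5 higher and 0 lower (before squalene), 5 to 6 and 2 (after squalene), 4 and 4 (SREBP activation), 4 to 5 and 5 to 7 (uptake), 3 to 4 and 7 to 8 (LXR), 6 to 7 and 3 to 4 (isoprenoid) and 0 and 11 to 13 (fatty acids). Low genes such as *Ch25h* are limited by counting error.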
